A study of Mus musculus with 6 samples.

Results

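The protein components of the cytosolic ribosome were followed on 6 microarrays, with the genes of the large and of the small subunit set side by side. A gene was taken where its probe carried a single symbol starting with Rpl or Rps and a digit, or the symbol Rplp0, Rplp1, Rplp2, Rpsa or Fau. Kinases named Rps6k and pseudogenes were left out. The rule found 43 genes among the 6146 genes measured, 27 of the large subunit (Rpl symbols) and 16 of the small subunit (Rps symbols), read by 53 of the 11502 probes. A single probe read 34 of them, 2 probes read 8, and 3 probes read Rpl27a. In a mouse gene table of RefSeq the same rule finds 90 protein-coding genes, of which 42 were measured here. Rps4l, which that table does not list as protein-coding, is the other gene measured. Rplp2 and Fau had no probe with a single symbol and were not analysed here. The rule also took Rps19bp1 by its symbol. Its product binds Rps19 and is not part of the ribosome, so results for the small subunit that turn on it are given without it too. Rpl36al and Rps4l are close relatives of Rpl36a and Rps4x.

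Each array compared RNA from the brains of male mice aged 9 weeks, taken 10 min after naloxone, with RNA taken 10 min after saline. Naloxone is an antagonist of opioid receptors. NY1DD mice, a transgenic strain used as a model of sickle cell disease, gave 3 arrays, and wild-type C57BL/6J mice gave the other 3. The naloxone RNA always carried the dye Cy5 and the saline RNA the dye Cy3. Every value below is therefore a log2 ratio of the channels of 1 array, likely naloxone over saline: a positive value is more RNA after naloxone, a log2 ratio of 0 is no difference, and all signs turn if the ratio was formed the other way. Because no dyes were swapped, a dye bias of a probe cannot be told apart from naloxone in a strain's mean. Such a bias cancels in NY1DD minus C57BL/6J only as far as it is the same on all arrays. The labels do not say whether the arrays came from separate animals, so the tests measure the spread between arrays, and the number of arrays limits the precision.

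A ribosome is built from ribosomal RNA and a set of small proteins. The large subunit forms peptide bonds, the small subunit reads the messenger RNA, and the acidic stalk proteins of the large subunit call in the translation factors. One copy of nearly every protein goes into each ribosome, and cells make the proteins of both subunits in balance, partly through a tract of pyrimidines (C and T) at the very start of their messenger RNAs. Through this terminal oligopyrimidine tract the mTOR pathway, with the binding protein Larp1, sets how fast these messenger RNAs are translated. That step is not read by a ratio of RNA amounts.

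A few of the genes described below have a run of pyrimidines at or close to their annotated start. Promoter windows of 300 bases were found for 34 of the 43 genes in a RefSeq table of the GRCm38.p6 build, the other 9 having none there. The windows printed run from 50 bases before the annotated start to 10 bases from it, 5′ to 3′ along the gene, and capitals mark every run of at least 8 pyrimidines. The first set was chosen from genes that carry such a run close to their start. In Rps18, Rps9 and Rpl28 a run spans the annotated start. In Rps25 and Rpl13 it ends before that start and so lies outside the annotated messenger RNA.
Rps18 at chr17:33955656-33955715, minus strand: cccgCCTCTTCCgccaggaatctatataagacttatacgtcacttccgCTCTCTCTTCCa
Rps25 at chr9:44407664-44407723, plus strand: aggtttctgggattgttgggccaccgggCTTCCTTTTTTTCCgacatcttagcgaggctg
Rpl13 at chr8:123102300-123102359, plus strand: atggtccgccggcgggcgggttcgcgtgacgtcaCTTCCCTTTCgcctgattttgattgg
Rps9 at chr7:3703991-3704050, plus strand: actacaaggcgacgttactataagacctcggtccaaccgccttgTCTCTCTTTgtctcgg
Rpl28 at chr7:4792915-4792974, plus strand: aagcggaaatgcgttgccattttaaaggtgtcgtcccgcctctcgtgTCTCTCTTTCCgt

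The second set holds genes whose values stand out below and whose window has no such run of letters.
Rps2 at chr17:24720013-24720072, plus strand: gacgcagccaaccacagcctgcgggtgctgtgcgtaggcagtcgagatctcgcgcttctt
Rps4x at chrX:102189382-102189441, minus strand: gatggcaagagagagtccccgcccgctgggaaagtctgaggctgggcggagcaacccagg
Rpl23 at chr11:97782430-97782489, minus strand: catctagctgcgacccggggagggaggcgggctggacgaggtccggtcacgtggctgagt
Rpl41 at chr10:128549159-128549218, minus strand: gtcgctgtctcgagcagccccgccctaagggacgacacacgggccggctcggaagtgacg

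Within 25 bases of the start, a run of 8 pyrimidines was found in 18 of the 34 genes with a window (52.9%), against 22.3% of all 27025 genes in that table. A stricter form, a C at the annotated start followed by 4 pyrimidines, was found in 6 of them (17.6%), against 3.01% of all genes. Those 6 were Rpl15, Rpl28, Rps15a, Rps18, Rps27 and Rps6. The letters CTTCCG, the core of sites that ETS factors bind, stood on either strand of the whole window in 23 of the 34 genes (67.6%), against 18.8% of all genes. The letters CTTTCC on the gene's strand, which can lie inside a pyrimidine run, stood in 13 (38.2%), against 16.0% of all genes. CTTCCG and CTTTCC can share no more than an end letter on the same strand, and either can share letters with a pyrimidine run. A match is a description of these letters only, and 5 of the 34 genes have more than 1 annotated start.

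The 2 subunit medians lay within 0.16 of each other on every array, and the arrays furthest apart differed by more. In NY1DD the median log2 ratio of the 27 large subunit genes was 0.45, 0.01 and 0.12 on replicates 1, 2 and 3, the order in which the values of a strain are given throughout. In C57BL/6J it was -0.16, 0.17 and -0.05. The 16 small subunit genes had medians of 0.35, 0.04 and 0.06 in NY1DD and of -0.22, 0.14 and 0.11 in C57BL/6J. Both subunits were highest on NY1DD replicate 1 and lowest on C57BL/6J replicate 1. The median of the other measured genes lay between -0.01 and 0.01 on all 6 arrays, as the centring of each array on its median sets it. Relative to that, the subunit medians were on opposite sides of 0 on these 2 arrays. On the other arrays the large subunit medians ran from -0.05 to 0.17 and the small from 0.04 to 0.14. The subunits themselves were on opposite sides of 0 on C57BL/6J replicate 3.

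The distance between the subunits was small beside that between NY1DD replicate 1 and C57BL/6J replicate 1. Large minus small was 0.10, -0.03 and 0.06 in NY1DD and 0.07, 0.03 and -0.16 in C57BL/6J. The large subunit lay above the small on 4 arrays and below on 2. Its widest distance from the small subunit was 0.16, on C57BL/6J replicate 3. The range over the 6 arrays was 0.61 for the large and 0.58 for the small subunit. Both ranges were set by NY1DD replicate 1 and C57BL/6J replicate 1. Over the other arrays the small subunit medians spread less than that widest distance. Single genes within a subunit lay much further apart than the subunits did: on NY1DD replicate 1 the large subunit genes ran from -0.81 to 0.94 and the small subunit genes from -0.63 to 1.10. Over all 43 genes the SD was 0.43, 0.43 and 0.38 in NY1DD and 0.42, 0.23 and 0.33 in C57BL/6J.

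**Figure D1:**
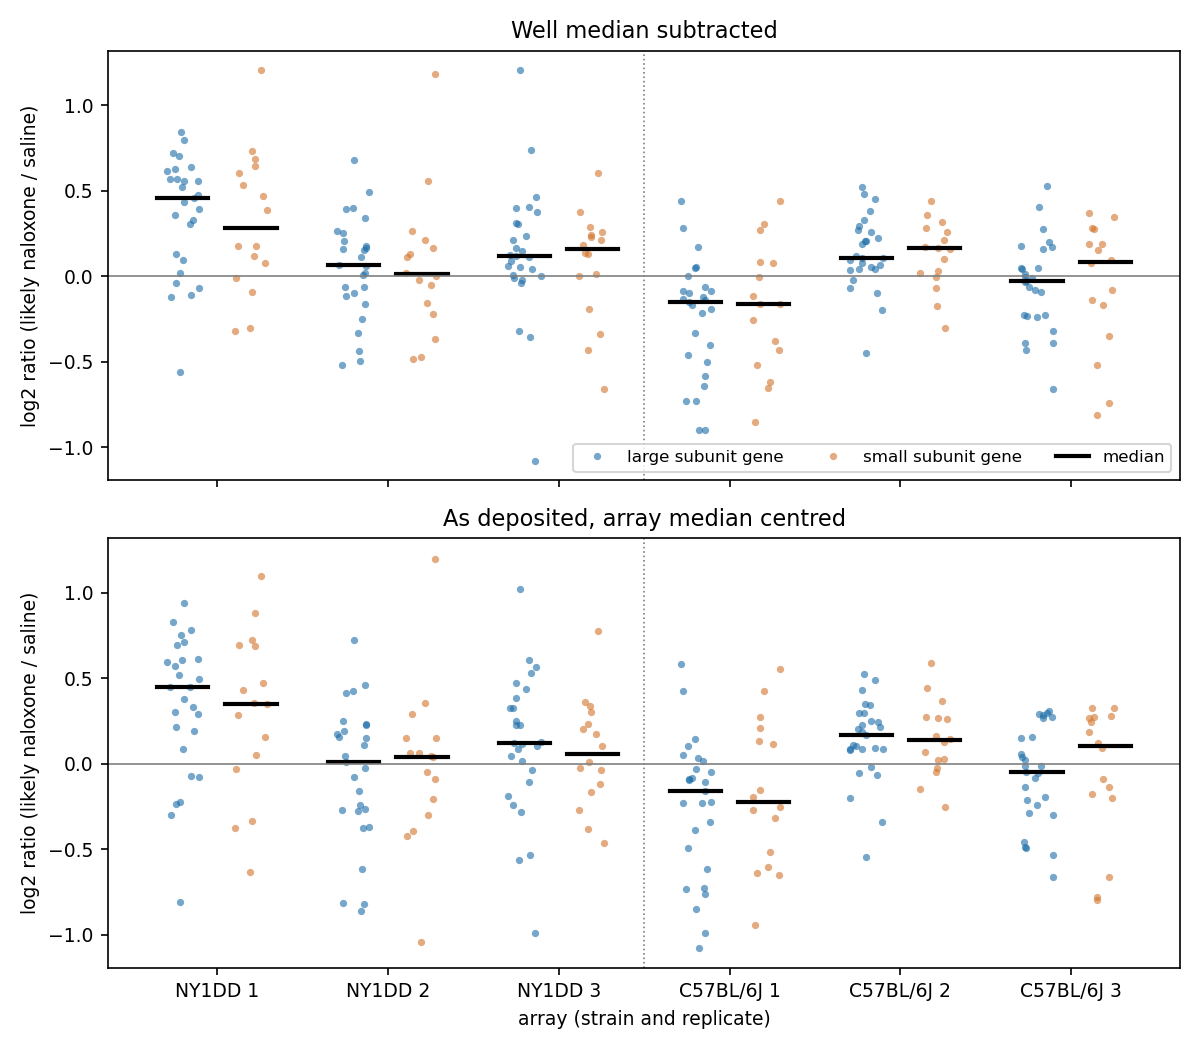
Log2 ratio (likely naloxone over saline) of each ribosomal protein gene on the 6 arrays, NY1DD left of C57BL/6J, large subunit genes in blue and small subunit genes in orange, with the median of each set as a bar. The upper panel has the median of each plate well subtracted and the lower panel does not. Both sets stand highest on NY1DD replicate 1, at medians of 0.45 and 0.35 in the lower panel, and lowest on C57BL/6J replicate 1, at -0.16 and -0.22.

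The probes were spotted from source plates, and the name of a probe gives its plate, row and column. On some arrays probes that share a well position (1 of 96 positions, with 104 to 120 probes each) share a shift. Well position accounted for 6.72%, 27.5% and 11.4% of the variance of all probes in NY1DD and for 5.38%, 3.20% and 4.65% in C57BL/6J. Across the ribosomal protein probes with a value, the Pearson correlation of a probe with the median of its well was 0.52, 0.68 and 0.16 in NY1DD and 0.65, 0.35 and 0.27 in C57BL/6J. These are descriptions over 52 or 53 probes that share an array, and some of them a gene. The median of the well on that array was therefore subtracted from every probe as the second way to read the data.

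With the well medians subtracted, the large subunit medians were 0.46, 0.06 and 0.12 in NY1DD and -0.15, 0.11 and -0.03 in C57BL/6J. The small subunit medians were 0.28, 0.01 and 0.16 in NY1DD and -0.16, 0.16 and 0.09 in C57BL/6J. The order of the arrays at both ends stayed as it was, with NY1DD replicate 1 highest and C57BL/6J replicate 1 lowest for both subunits. Large minus small became 0.18, 0.05 and -0.04 in NY1DD and 0.01, -0.06 and -0.11 in C57BL/6J. The large subunit was then above the small on 3 arrays and below on 3, and the sign of the distance turned on NY1DD replicates 2 and 3 and on C57BL/6J replicate 2. No order of the subunits held over the arrays in either reading.

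NY1DD replicate 2 showed the effect of the wells most clearly. On that array 11 ribosomal protein probes, 6 of the 34 large subunit probes and 5 of the 19 small subunit probes, lay in wells whose median was below -0.3. The probes of Rpl28, of Rpl5 and of the stalk protein Rplp0 came from the same well position, whose median was -0.97. Rpl28 read -0.82 there and 0.16 after subtraction. Rpl5, which joins the ribosome together with its smallest ribosomal RNA, read -0.86 there and 0.11 after subtraction. Rplp0 read -0.82 and 0.15. Rps24, one of the genes mutated in Diamond-Blackfan anaemia, read -0.30 and 0.55. Rps15a stayed low, at -1.04 as deposited and -0.47 after subtraction. Most of the lowest values of this array therefore belonged to low wells. Rps15a was among these but lay below its own well, whose median was -0.57. Rps4x read -0.39 in a well with a median of 0.09.

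**Figure D2:**
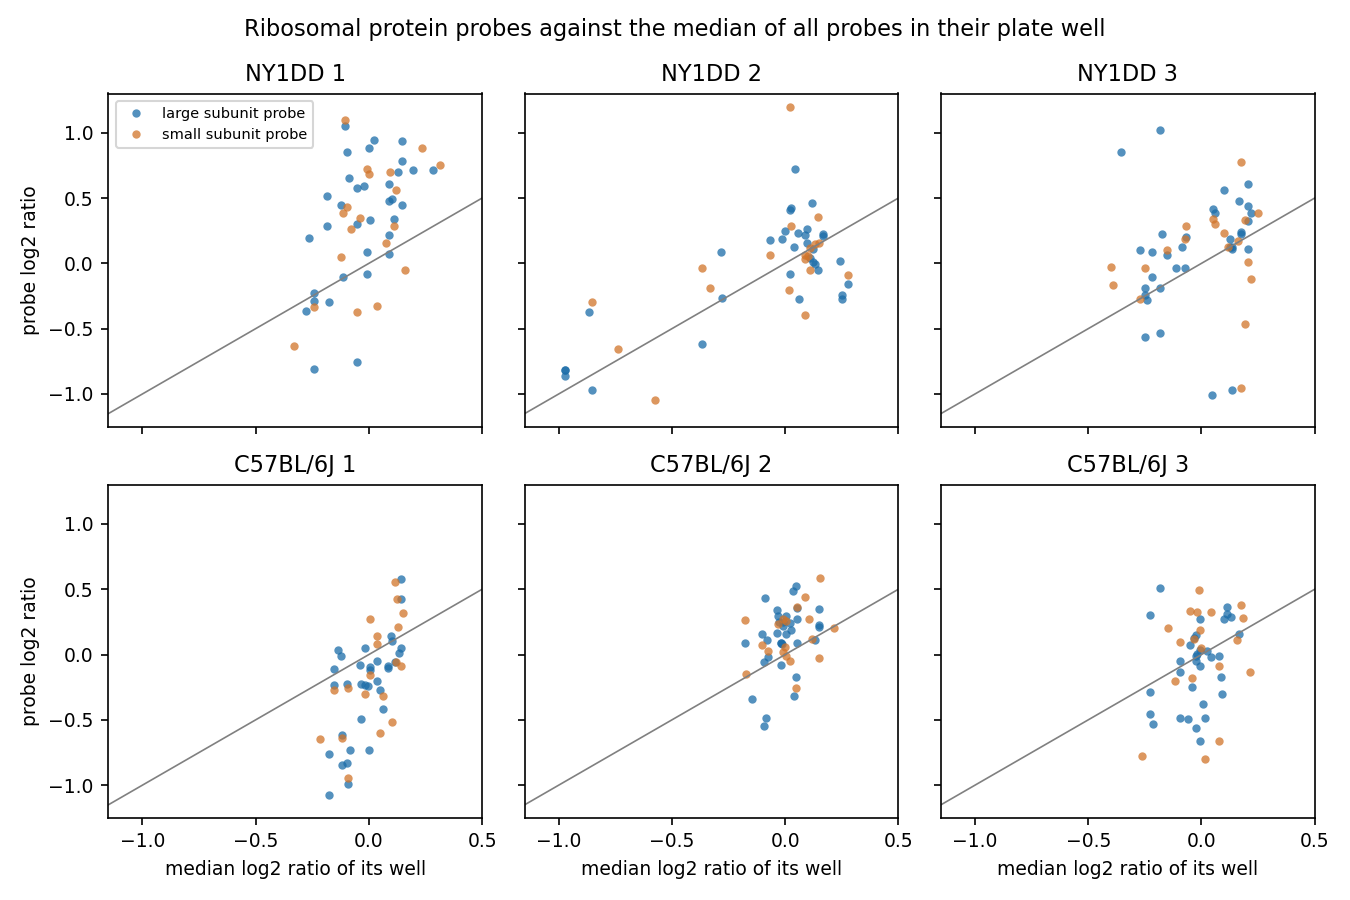
Log2 ratio of each ribosomal protein probe (vertical axis) against the median log2 ratio of all probes in the same plate well on that array (horizontal axis), 1 panel per array, large subunit probes in blue and small subunit probes in orange; the line marks equal values. On NY1DD replicate 2 the probes in wells at -0.97 read -0.82 to -0.86, close to the line, and on NY1DD replicate 1 most probes lie above it.

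Set against each other, the strains overlapped in every subunit summary. The large subunit median averaged 0.19 ± 0.23 in NY1DD and -0.01 ± 0.17 in C57BL/6J (SD, n = 3 each), a difference of 0.21 (SE 0.16). The small subunit median averaged 0.15 ± 0.17 in NY1DD and 0.01 ± 0.20 in C57BL/6J, a difference of 0.14 (SE 0.15). Large minus small averaged 0.04 ± 0.07 in NY1DD and -0.02 ± 0.12 in C57BL/6J, a difference of 0.06 (SE 0.08). With well medians subtracted these 3 differences were 0.24 (SE 0.14), 0.12 (SE 0.13) and 0.11 (SE 0.07). The lowest NY1DD array lay below the highest C57BL/6J array each time, and these medians were given no test.

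Single arrays carried much of these differences. Without NY1DD replicate 1 the difference was 0.09 for the large and 0.04 for the small subunit. Without C57BL/6J replicate 1 it was 0.12 for the large and 0.03 for the small subunit. Without NY1DD replicate 2 it was 0.30 and 0.20. Without C57BL/6J replicate 2 the large subunit difference was 0.27 and the strains no longer overlapped, the NY1DD medians reaching down to 0.01 and the remaining C57BL/6J medians up to -0.05. The difference in large minus small was between -0.01, without C57BL/6J replicate 3, and 0.10, without NY1DD replicate 2. Without Rps19bp1 the small subunit difference was 0.14 and that of large minus small 0.07. Without it and with the well medians subtracted, the small subunit medians were 0.39, 0.00 and 0.14 in NY1DD and -0.16, 0.17 and 0.08 in C57BL/6J. Large minus small was then 0.07, 0.06 and -0.02 in NY1DD and 0.01, -0.06 and -0.10 in C57BL/6J, so that on NY1DD replicate 1 the distance without this gene was 0.07, against 0.18 with it. The strain differences in that setting were 0.15 (SE 0.15) for the small subunit and 0.09 (SE 0.04) for large minus small.

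Gene by gene, no ribosomal protein gene passed the test in any comparison. Limma, a linear model fitted over all 9685 measured features with Benjamini-Hochberg adjustment over all of them, called 0 of the 43 genes in each of 4 comparisons. These set the NY1DD mean and the C57BL/6J mean against 0, the strains against each other, and their average against 0. The share of all features called was 0% each time. The smallest adjusted p of a member was 0.525 for NY1DD, 0.351 for C57BL/6J, 0.969 for the difference and 0.180 for the average. At an unadjusted p under 0.05, for NY1DD 4 members were positive (background 3.46% of features) and 2 negative (background 4.89%). For C57BL/6J 0 were positive (background 1.76%) and 3 negative (background 5.17%). For the difference 1 was positive (background 2.75%) and 0 negative (background 1.76%). For the average 2 were positive (background 3.40%) and 2 negative (background 7.37%). After the subtraction of well medians 0 members again passed (0% of features), and at an unadjusted p under 0.05 the counts were 4 positive (background 4.08%) and 1 negative (4.74%) for NY1DD, 0 positive (2.05%) and 3 negative (5.32%) for C57BL/6J. They were 3 positive (3.28%) and 0 negative (1.90%) for the difference, and 4 positive (3.74%) and 2 negative (7.19%) for the average. The directions below are those of estimates that did not pass.

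The sign of the estimates was uneven between the comparisons and between the subunits. For NY1DD 20 of 27 large and 10 of 16 small subunit genes had a positive mean log2 ratio, against 47.5% of all features. For C57BL/6J it was 12 of 27 and 9 of 16, against 49.9%, and for the average 17 of 27 and 9 of 16, against 48.2%. After subtraction the NY1DD counts were 20 and 10 (background 49.3%) and the C57BL/6J counts 14 and 7 (background 49.4%). The difference between the strains was positive for 23 of 27 large subunit genes, with a median of 0.18, and for 10 of 16 small subunit genes, with a median of 0.12. The background was 48.3% of all features, with a median of -0.01. With well medians subtracted it was positive for 26 of 27 large and 12 of 16 small subunit genes, against 50.5% of all features. Over both subunits the count was 33 of 43, and 38 with well medians subtracted. It was 25 without NY1DD replicate 1, 29 without C57BL/6J replicate 1, 31 without NY1DD replicate 3 and 35 to 37 without any other array. Members share arrays and wells, so these counts describe the list on these 6 arrays. Whether the subunits differ in them was not tested.

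**Figure D3:**
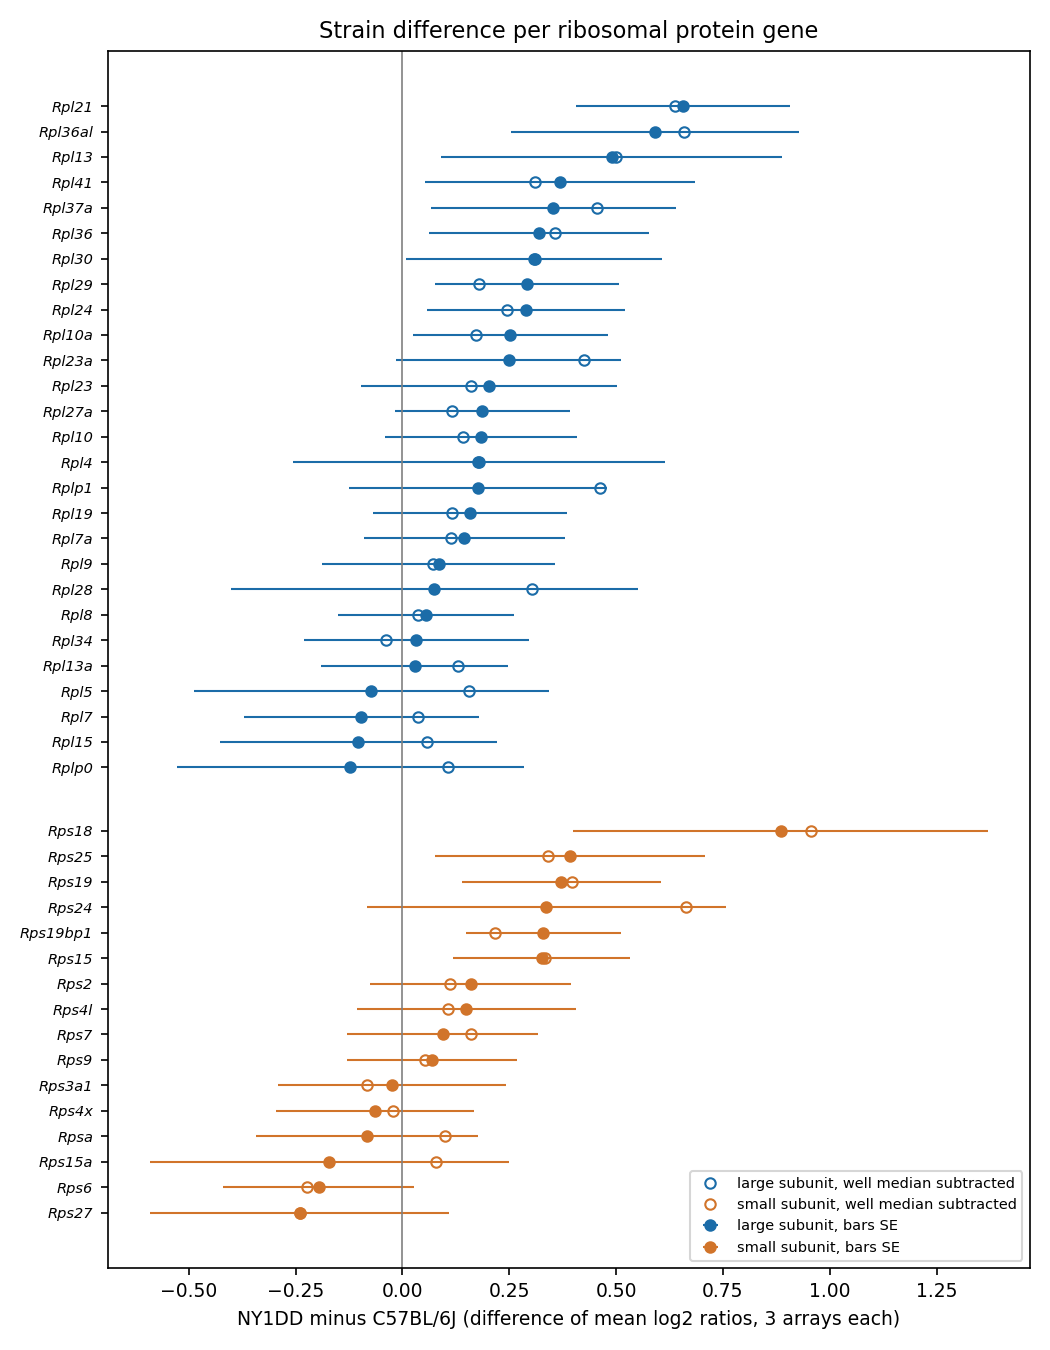
Difference of mean log2 ratios, NY1DD minus C57BL/6J (horizontal axis, 3 arrays each), for each ribosomal protein gene, large subunit in blue and small subunit in orange, ordered within each; filled points with bars are the estimate and its SE, open points the estimate with well medians subtracted. Of the filled points 23 of 27 large and 10 of 16 small subunit genes lie right of 0, and the bars of neighbours overlap throughout.

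Among the large subunit genes Rpl21 had the highest difference. Its log2 ratio was 0.19, 0.46 and -0.28 in NY1DD, against -0.73, -0.34 and -0.53 in C57BL/6J. Every NY1DD array lay above every C57BL/6J array, the nearest of them narrowly. The difference was 0.66 (SE 0.25, limma adjusted p = 0.969), and 0.64 with well medians subtracted. Most of it lay in the negative C57BL/6J values, whose mean was -0.53.

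Rpl29, which is also known as a heparin-binding protein, was the other large subunit gene without overlap. It read 0.70, 0.16 and 0.23 in NY1DD, against 0.14, 0.08 and -0.01 in C57BL/6J. The difference was 0.29 (SE 0.22, limma adjusted p = 0.969), and subtracting the well medians left one of 0.18 with the strains overlapping. Genes whose NY1DD arrays all lay above the C57BL/6J arrays numbered 3 of 43, against 5.21% of features measured on all 6 arrays, and 0 lay below, against 4.20%. The third was Rps19bp1. Once well medians were subtracted 6 lay above (background 5.44%) and 0 below (background 4.84%).

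Rpl36al, Rpl13 and Rpl41 followed Rpl21 in size. Rpl36al read 0.45, 0.43 and 0.10 in NY1DD, against -0.99, 0.24 and -0.05 in C57BL/6J. Its difference of 0.59 (SE 0.34) was 0.23 without C57BL/6J replicate 1, whose -0.99 was among the lowest values of any member. Rpl13 read -0.30, 0.72 and 1.02 in NY1DD, against 0.03, 0.43 and -0.49 in C57BL/6J, so its NY1DD arrays spanned more than the difference of 0.49 (SE 0.40). Rpl41, the smallest ribosomal protein, read 0.30, -0.16 and -0.57 in NY1DD, against -0.85, -0.02 and -0.66 in C57BL/6J. Each of these 3 had arrays of both strains in the same range. Once well medians were subtracted Rpl36al no longer did, at 0.57, 0.40 and 0.38 in NY1DD, against -0.90, 0.22 and 0.05 in C57BL/6J, a difference of 0.66 (SE 0.31).

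In the small subunit the highest difference was that of Rps18, a protein of the subunit's head. It read 0.35, 1.20 and -0.03 in NY1DD, against -0.95, 0.59 and -0.78 in C57BL/6J. The difference was 0.89 (SE 0.49, limma adjusted p = 0.969) and 0.96 with well medians subtracted. It had the widest spread between the C57BL/6J arrays of any small subunit gene (SD 0.84), and NY1DD replicate 2 and C57BL/6J replicate 2 were its high arrays. Without NY1DD replicate 2 its NY1DD mean was 0.16, against 0.51 with it.

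Rps19, the first gene found mutated in Diamond-Blackfan anaemia, read -0.33, 0.06 and 0.01 in NY1DD, against -0.32, -0.25 and -0.80 in C57BL/6J. Only the lowest NY1DD array overlapped with C57BL/6J, and with well medians subtracted, at -0.09, -0.02 and -0.19 against -0.38, -0.30 and -0.81, none did. Its difference was 0.37 (SE 0.23) and 0.40 in these 2 readings. Its partner Rps19bp1, also known as a regulator of the deacetylase Sirt1, read 0.29, 0.36 and 0.34 in NY1DD, against -0.15, 0.02 and 0.12 in C57BL/6J. The NY1DD arrays lay close together and above all C57BL/6J arrays in both readings, with a difference of 0.33 (SE 0.18, limma adjusted p = 0.969) and of 0.22 with well medians subtracted.

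Rps25, which is needed for translation from internal ribosome entry sites, read 0.88, 0.15 and 0.17 in NY1DD, against -0.52, 0.27 and 0.28 in C57BL/6J. The strains differed by 0.39 (SE 0.32). NY1DD replicate 1 was its high array and C57BL/6J replicate 1 its low one, and of the remaining 4 arrays those of C57BL/6J were the higher. At the other end Rps27 read 0.16, -0.21 and -0.47 in NY1DD, against 0.43, 0.44 and -0.66 in C57BL/6J. Its difference of -0.24 (SE 0.35) was the lowest of all members, and it was -0.61 without C57BL/6J replicate 3. Negative estimates of the difference were small throughout, between -0.02 and -0.24 in 10 genes.

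Of the genes measured on all 6 arrays, 3 members were positive on every array, against 2.45% of features. Rps2, which lies where the messenger RNA enters the small subunit, read 0.69, 0.15 and 0.78 in NY1DD, against 0.55, 0.26 and 0.32 in C57BL/6J. Its mean was 0.54 in NY1DD and 0.38 in C57BL/6J, the highest of any member in both strains, and 0.46 on average (SE 0.12, limma adjusted p = 0.221). Rpl8, a protein close to the site where peptide bonds form, read 0.50, 0.19 and 0.38 in NY1DD, against 0.10, 0.53 and 0.27 in C57BL/6J, with an average of 0.33 (SE 0.10, limma adjusted p = 0.319). Rps9, a neighbour of Rps2 at the entry site, read 0.47, 0.04 and 0.21 in NY1DD, against 0.11, 0.13 and 0.27 in C57BL/6J. These are means of its probes, which read -0.04 and 0.11 on NY1DD replicate 2 and 0.26 and -0.01 on C57BL/6J replicate 2. Neither Rps9 probe was thus positive on every array. The strains overlapped for all 3 genes, and a dye bias of their probes cannot be told apart from naloxone.

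Another 3 members were negative on every array, against 4.66% of features. Rpl19, which forms a bridge to the small subunit, read -0.81, -0.27 and -0.24 in NY1DD, against -0.76, -0.55 and -0.49 in C57BL/6J. Its average of -0.52 (SE 0.11) had the smallest adjusted p of any member in any comparison (limma adjusted p = 0.180). Rps4x, an X-linked gene of the small subunit, read -0.63, -0.39 and -0.16 in NY1DD, against -0.65, -0.15 and -0.20 in C57BL/6J. Rpl23, one of the ribosomal proteins that bind Mdm2, read -0.22, -0.24 and -0.19 in NY1DD, against -1.08, -0.05 and -0.13 in C57BL/6J. The average of Rpl23 was -0.32 (SE 0.15), and -0.16 without C57BL/6J replicate 1.

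All 3 of these probes came from column 1 of the source plates, a feature noticed after the values were seen. Column 1 held 9 ribosomal protein probes, those of Rpl19, Rpl23, Rpl36al, Rpl41, Rps3a1, Rps4x, Rps7 and Rps18 and 1 of the 3 probes of Rpl27a. Their median was -0.22, -0.09 and -0.16 in NY1DD and -0.76, -0.02 and -0.20 in C57BL/6J. The 44 ribosomal protein probes of columns 2 to 12 had medians of 0.49, 0.06 and 0.19 in NY1DD and of -0.09, 0.20 and 0.04 in C57BL/6J. Those in column 1 were lower on all 6 arrays. The 905 other probes of column 1 had medians of -0.17, 0.15 and -0.27 in NY1DD and of -0.13, -0.06 and -0.10 in C57BL/6J. Column 1 as a whole was thus below 0 on 5 arrays, but by far less than its ribosomal protein probes on C57BL/6J replicate 1.

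**Figure D4:**
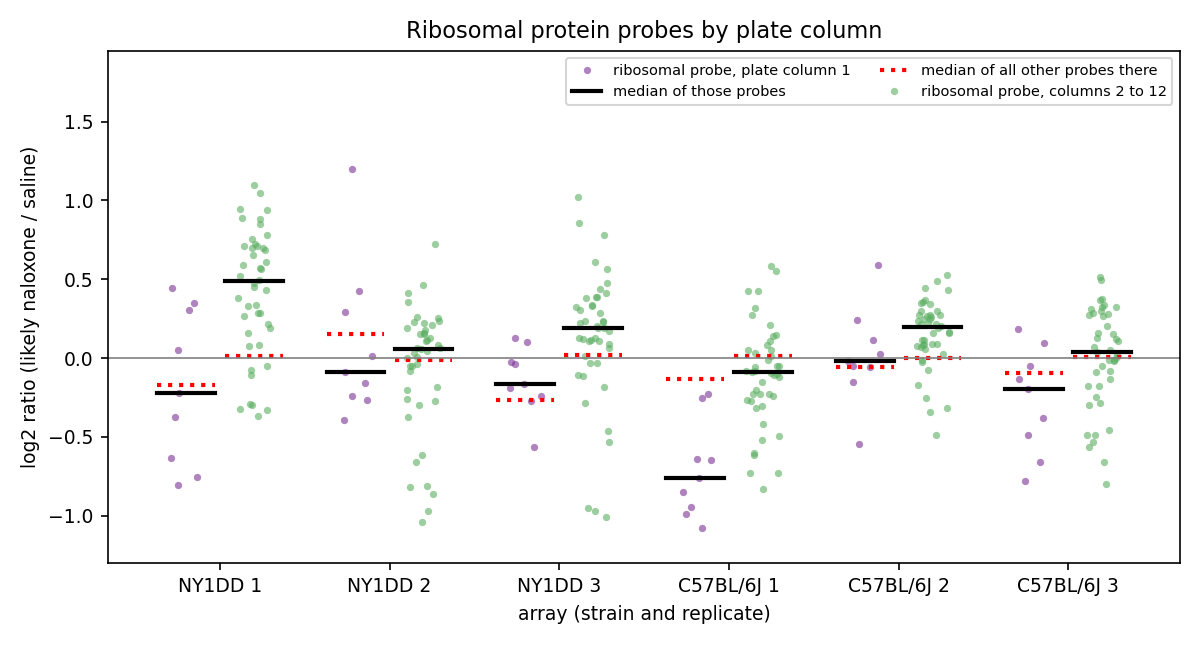
Log2 ratio of each ribosomal protein probe by array, probes from column 1 of the source plates in purple and those from columns 2 to 12 in green, with the median of each set (black bar) and of all other probes of the same columns (red dots). The column 1 probes are lower on every array, with a median of -0.22 against 0.49 on NY1DD replicate 1 and of -0.76 against -0.09 on C57BL/6J replicate 1.

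With well medians subtracted, the column 1 probes had medians of 0.02, -0.37 and 0.21 in NY1DD and of -0.58, 0.06 and -0.08 in C57BL/6J. Those of columns 2 to 12 had 0.45, 0.06 and 0.13 in NY1DD and -0.13, 0.17 and 0.01 in C57BL/6J. Column 1 was then above them on NY1DD replicate 3 and below on the other 5 arrays. Rps4x then read -0.30, -0.48 and 0.23 in NY1DD, against -0.43, 0.02 and -0.08 in C57BL/6J, and its average was -0.18, against -0.36 without subtraction. The probes of Rpl19 and Rpl23 shared a well position. After subtraction Rpl19 had an average of -0.42, and Rpl23 had means of -0.14 in NY1DD and -0.30 in C57BL/6J. Rps4x, Rpl19 and Rpl23 were then no longer negative on every array. In that reading 4 members were positive on every array (background 2.64%) and 1, Rps19, was negative (background 4.45%). Without the column 1 probes, and without subtraction, the difference between the strains was 0.23 (SE 0.16) for the large and 0.12 (SE 0.14) for the small subunit, with 19 of 23 and 8 of 12 genes positive. What part the plate column has in the low values of single genes was not tested further.

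The stalk proteins and Rpsa were read apart because of their own roles. Rplp0, the base of the stalk, read 0.45, -0.82 and 0.33 in NY1DD, against 0.42, 0.35 and -0.45 in C57BL/6J, and 0.30, 0.15 and 0.12 against 0.28, 0.20 and -0.23 with well medians subtracted. Its difference changed sign, at -0.12 (SE 0.41) and 0.11 (SE 0.20). Rplp1, which binds Rplp0 and reaches out to the translation factors, read 0.71, -0.37 and 0.47 in NY1DD, against 0.01, 0.11 and 0.16 in C57BL/6J. With well medians subtracted it read 0.43, 0.49 and 0.31 in NY1DD, against -0.12, -0.02 and -0.01 in C57BL/6J. The difference was 0.18 (SE 0.30) without and 0.46 (SE 0.16) with subtraction, and its single low array, NY1DD replicate 2, was one on which its well had a median of -0.87.

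Rpsa, known also as a precursor of a laminin receptor, also had its low value on NY1DD replicate 2, with both of its probes. It read 0.35, -0.42 and 0.36 in NY1DD, against 0.13, 0.16 and 0.24 in C57BL/6J. With well medians subtracted it read 0.12, 0.11 and 0.14 in NY1DD, against 0.00, -0.01 and 0.08 in C57BL/6J. The difference was -0.08 (SE 0.26) without and 0.10 (SE 0.15) with subtraction. Subtraction raised the number of members above 0 on all 3 NY1DD arrays to 20, against 12 without it, beside 14.5% and 13.6% of all features. For the C57BL/6J arrays it was 4 with and 6 without subtraction, beside 13.1% and 14.2%.

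Where a gene had several probes, these did not always agree. The probes of Rps6, the target of the S6 kinases, averaged 0.16 and -0.41 in NY1DD, against 0.14 and 0.01 in C57BL/6J. The lower probe read -0.95 on NY1DD replicate 3, where the other read 0.19. The 3 probes of Rpl27a averaged 0.03, -0.21 and 0.26 in NY1DD, against -0.49, -0.17 and 0.18 in C57BL/6J. The strain difference of this gene was thus 0.52, -0.04 and 0.08, depending on the probe. For Rpl15 the probes averaged -0.17 and 0.24 in NY1DD, against -0.01 and 0.00 in C57BL/6J, with strain differences of -0.16 and 0.24. Those of Rpl23a averaged 0.15 and 0.01 in NY1DD, against 0.03 and -0.36 in C57BL/6J. Both probes of Rpl4, which lines the exit tunnel of the large subunit, agreed on each NY1DD array, at 0.94 and 0.71, 0.26 and 0.09, and -1.01 and -0.97, so its wide spread in NY1DD (SD 0.92) was seen with both. On C57BL/6J replicate 3 one Rpl4 probe stood at the lowest value the table allows, a ratio of 0.01, and was treated as missing. The higher probe of Rpl15 had no value on NY1DD replicate 2, so the gene's -0.61 there came from its other probe alone. These were the only gaps among 318 values.

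Other genes of protein synthesis were counted beside the members, from lists chosen with results of these data known. Of 48 mitochondrial ribosomal protein genes 30 were positive in NY1DD and 21 in C57BL/6J, and 29 had a positive difference, with a median of 0.05. Of 34 translation factor genes these counts were 19, 22 and 17, with a median difference of 0.02. Of 34 ribosome biogenesis genes they were 16, 15 and 17, with a median difference of 0.01. Of 15 regulators of translation, Larp1 and Mtor among them, they were 4, 5 and 5, with a median difference of -0.07. No gene of these lists passed the test in either strain, in the difference or in the average. The array medians of the mitochondrial ribosomal proteins, 0.12, -0.01 and 0.01 in NY1DD and -0.06, 0.03 and 0.03 in C57BL/6J, ran in a narrower range than those of the cytosolic ones.

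Ratios give no level, so whether the samples were brain could not be checked from marker levels, and in whole tissue fewer cells of a type and less RNA per cell cannot be told apart. The 10 measured neuron markers had medians of 0.19, 0.03 and 0.10 in NY1DD and of -0.13, 0.07 and 0.05 in C57BL/6J. They were highest and lowest on the same 2 arrays as the ribosomal protein genes, and so were the 3 choroid plexus markers, at 0.73, -0.08 and 0.01 in NY1DD and -0.12, 0.44 and 0.56 in C57BL/6J. With well medians subtracted this held for the neuron markers, at 0.18 and -0.07 on these arrays. The choroid plexus markers were then highest on C57BL/6J replicate 3, at 0.74, and lowest on NY1DD replicate 2, at -0.18. The 5 astrocyte markers had medians of -0.13, -0.10 and -0.21 in NY1DD and of 0.01, 0.03 and 0.16 in C57BL/6J, without overlap between the strains. After subtraction of well medians they overlapped, at -0.14, -0.20 and 0.01 in NY1DD and -0.09, 0.00 and 0.15 in C57BL/6J. None of these markers passed the test. The medians of the 5 oligodendrocyte markers ran from 0.05 to 0.37 over the NY1DD arrays and from -0.03 to 0.14 over the C57BL/6J arrays. With well medians subtracted they were 0.33, 0.18 and -0.11 in NY1DD and 0.12, 0.11 and 0.01 in C57BL/6J. Markers of microglia, endothelium and choroid plexus numbered 3 each, and no blood marker was measured. The part of these cell types in the ribosomal protein values was not tested.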

How the data were processed

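The authors deposited 1 table of natural log (ln) ratios for 6 two-colour BMAP cDNA arrays; the unit was read from its values, whose lower limit is the natural log of 0.01. Per the labels' protocols, RNA was extracted with TRIzol and labelled directly with Cy5 (naloxone) or Cy3 (saline). Which channel is the numerator, and how background and dye were corrected and with which software, is not given in the sources used here. No channel intensities entered this work, so how far a value stood above background is unknown.

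Values were converted to log2 ratios, and values at the lower limit were treated as missing. The 30 control spots were left out, and probes measured on fewer than 2 arrays of either strain were dropped. The median of each array was subtracted from it. Probes of one gene, by single symbol in the platform annotation, were averaged, which left 9685 features. Probes with several symbols, 11 of them with a ribosomal one, were not members. Limma 3.58.1 in R 4.3.3 estimated the strain means from the 6 arrays together (4 residual degrees of freedom, two-sided, threshold 0.05); it was tested on simulated data. SE of a gene's value is that of limma; SE of a difference between subunit medians comes from the SDs between arrays, and these medians were given no test. Well subtraction took the median, on each array, of all probes in the same plate row and column.

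The ribosomal protein genes and all gene lists were chosen with earlier results of these data known. Genes were named by a rule, those with most reasons first. Per comparison and subunit it took the 3 highest and 3 lowest estimates. It also took the same sign on all arrays, strains without overlap and an unadjusted p under 0.05. The stalk proteins, Rpsa and values at the lower limit were further reasons. The last was probes with strain means or differences of opposite sign and size over 0.3, for which no gene was named. Of the genes named by this rule Rpl7, Rps3a1 and Rps4l met few parts and are not described singly. Rpl28 and Rps24 were added for their wells after their values were seen. Rpl23a and Rpl27a, which the rule did not name, are described for their several probes. Replicate numbers are shared between strains, but deviations of same-numbered arrays correlated at -0.07, 0.06 and 0.02 over all features, so the numbers were not used to pair arrays. The promoter sequences are from RefSeq. Alternatives covered well and column position, missing values, centring, scale, probe summary, members, the number in the titles and each array left out.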

Additional observations from a re-analysis of the deposited data

Results flagged for a closer look

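Rplp1, the stalk protein, had every NY1DD array above 0 and every C57BL/6J array below 0 once well medians were subtracted, and it was the only named gene for which the strains took opposite signs in this way. The gene was picked from these same values, and the share of all features with this pattern was not counted. In this reading 6 of 43 members had every NY1DD array above every C57BL/6J array, against 5.44% of features measured on all 6 arrays. It read 0.43, 0.49 and 0.31 on the NY1DD arrays, against -0.12, -0.02 and -0.01 on the C57BL/6J arrays, a difference of 0.46 (SE 0.16). Limma's test of that difference did not pass after adjustment over all features (the smallest adjusted p of any member with well medians subtracted was 0.918). Without subtraction the strains overlapped and the difference was 0.18.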

How the results depend on the processing

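No feature passed the threshold in any of the 4 comparisons under any alternative in which all features were refitted; the mean in place of the median and the settings without plate column 1, Rps19bp1 or close paralogs were run on subunit summaries alone. No subunit summary moved by more than 1 SD between arrays. The difference between the strains in the large subunit median was 0.21 and ran from 0.18 with arrays scaled to the same spread to 0.24 with well medians subtracted and 0.25 with these subtracted and the probes of plate column 1 left out, and from 0.09 to 0.30 over the alternatives that leave out 1 array. For the small subunit it was 0.14, and from 0.03 to 0.21 with 1 array left out. For large minus small it was 0.06, and from -0.01 to 0.10 with 1 array left out. With all arrays it ran from 0.04 with arrays scaled to the same spread to 0.11 with well medians subtracted. Of 825 alternative values of 27 named genes 806 stayed within 1 SE of the value given, 19 moved further, 17 changed sign and 0 passed the threshold, the smallest adjusted p being 0.131. Sign changes came most often with well medians subtracted (5) and without NY1DD replicate 2 (5). With the replicate number as a block, 0 features passed, and 4, 3, 2 and 4 members had an unadjusted p under 0.05 for NY1DD, C57BL/6J, the difference and the average, against 6, 3, 1 and 4 without it. Whether same-numbered arrays were handled together is not known from the labels. A setting chosen after seeing the data left out the probes of plate column 1 and subtracted well medians. The large subunit medians of the strains were then nearly tied at their nearest arrays but did not overlap. They ran from 0.110 to 0.473 for NY1DD and from -0.131 to 0.107 for C57BL/6J. Large minus small did not overlap there either, at -0.03 to 0.10 for NY1DD and -0.09 to -0.06 for C57BL/6J, a difference of 0.10 (SE 0.04). C57BL/6J replicates 1 and 2 share the number in their titles, whose meaning is not stated. The strains have no such number in common, so whatever it marks cannot be told apart from strain. With that number as a random block limma estimated a correlation for 0 features. With a preset correlation of 0.5, chosen after seeing the data, 0 features passed, and 3, 3, 0 and 4 members had an unadjusted p under 0.05 in the 4 comparisons; their smallest adjusted p was 0.683, 0.751, 0.999 and 0.323. How far the values stood above background is unknown.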
